A study of Sus scrofa with 20 samples.

Results

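The 7 genes described here code for enzymes that make steroids and other lipophilic compounds more polar: the sulfotransferases SULT2A1, SULT1A1, SULT1E1 and SULT2B1, the glucuronosyltransferase UGT1A6 and the flavin-containing monooxygenases FMO1 and FMO5. They were looked up by symbol among the 21755 RefSeq transcript IDs that were counted in each sample. FMO5 was also located by the ID that the study gave for it. A total of 3 of the 7 genes had a counted ID: SULT2A1 (NM_001037150.1), FMO1 (NM_214064.1) and FMO5 (XM_001928594.1). SULT1A1, SULT1E1, SULT2B1 and UGT1A6 had no matched ID and were not analysed here. Other sulfotransferase, glucuronosyltransferase and monooxygenase genes were searched in the same way, which gave 2 IDs for 25 symbols: SULT4A1 (XM_003125977.1) and FMO2 (XM_003130104.1). No glucuronosyltransferase was matched, so nothing in these values describes glucuronidation by its enzymes.

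RNA-Seq counts were available for testis and liver of entire male pigs from a Duroc x F2 cross, the F2 descending from Leicoma x German Landrace F1 animals and Large White pig, with an age of 116 days in the labels, which the study's methods give as an average. Boars were placed in the high or the low androstenone group by the androstenone content of their fat, and each of the 4 groups (testis low, testis high, liver low, liver high) held 5 samples. The labels name no treatment, the groups were formed from the trait itself, and the boars all came from the same cross. Total counts ranged from 6161397 to 15975386 per testis sample and from 5796973 to 26783002 per liver sample, and 3 low and 2 high samples of each tissue held over 10000000 counts.

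Androstenone is a steroid of the 16-androstene class made in the Leydig cells of the testis, carried in the blood and stored in fat. Sulfotransferases transfer a sulfate group from the donor PAPS to a hydroxyl group, which makes a steroid water soluble, and glucuronosyltransferases do the same with glucuronic acid from UDP-glucuronic acid. SULT2A1 is the hydroxysteroid sulfotransferase that acts on DHEA and is known from liver, adrenal and steroid-producing tissue. Flavin-containing monooxygenases add oxygen to soft nucleophiles such as amines and sulfides; FMO5 differs from the others in that it can also act as a Baeyer-Villiger monooxygenase on ketones.

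The summed hepatocyte and Leydig cell markers were found where the labels place them. The summed level of 4 hepatocyte markers (ALB, APOA1, SERPINA1 and TF) lay between 63506 and 174310 counts per 1000000 counts (CPM) in the livers and between 46.4 and 168 CPM in the testes. The 4 Leydig cell markers (CYP17A1, INSL3, LHCGR and HSD3B1) summed to between 998 and 4678 CPM in the testes and to between 1.07 and 15.9 CPM in the livers. These sums came mostly from ALB in the livers and from INSL3 in the testes. HSD3B1 did not follow its sum. On a scale set over all 20 samples it averaged 3.15 ± 1.67 CPM in testis and 6.02 ± 6.67 CPM in liver (SD, n = 10 each). CPM here and below were scaled by the TMM method within a tissue unless stated otherwise. Other marker sums did not divide the organs in this way. The Sertoli markers (AMH, SOX9 and CLU) summed to between 5628 and 30434 CPM in the testes and between 1816 and 16109 CPM in the livers. The bile duct markers (KRT19 and EPCAM) summed to between 20.1 and 97.5 CPM in the testes and between 4.57 and 15.2 CPM in the livers. The tissues are mixtures of cells, so fewer cells of a type and less RNA per cell cannot be told apart.

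All 3 enzymes were higher in liver than in testis. On a scale set over all 20 samples, SULT2A1 averaged 64.2 ± 41.3 CPM (SD, n = 10) in testis and 890.1 ± 433 CPM (SD, n = 10) in liver. FMO1 averaged 80.3 ± 51.6 CPM (SD, n = 10) in testis and 2157 ± 1322 CPM (SD, n = 10) in liver. FMO5 averaged 2.51 ± 0.52 CPM (SD, n = 10) in testis and 92.9 ± 82.6 CPM (SD, n = 10) in liver. For each of the 3, all 10 livers lay above every testis. Even the lowest liver exceeded the highest testis 2.78 times for SULT2A1, 4.59 times for FMO1 and 3.73 times for FMO5.

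In the edgeR quasi-likelihood test of testis against liver, SULT2A1 had a log2 difference of -3.87 (SE 0.36, adjusted p = 3.32e-10), FMO1 one of -4.74 (SE 0.42, adjusted p = 1.78e-10) and FMO5 one of -4.93 (SE 0.31, adjusted p = 2.25e-13). A call required an adjusted p (Benjamini-Hochberg) under 0.05 and a change of at least 1.5-fold. By that rule 3 of 3 enzymes were higher in liver, against 32.2% of the 19065 tested IDs, while 43.5% were higher in testis. The IDs as a whole had a median log2 difference of 0.31 with TMM scaling and of 1.28 with library totals alone, and the split of calls moved from 8293 higher in testis and 6143 higher in liver to 11348 and 3577. The 3 enzymes stayed called and higher in liver under both scalings, with -2.86 for SULT2A1, -3.68 for FMO1 and -3.90 for FMO5 under library totals. Testis and liver came from the same boars, but the labels do not link the samples, so the test treats them as separate.

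The relatives of the 3 enzymes were divided differently between the organs. FMO2, known as the lung form, was low in both organs, with 0.98 ± 0.41 CPM in testis and 2.38 ± 1.68 CPM in liver (SD, n = 10 each). Its log2 difference of -1.26 (SE 0.36, adjusted p = 0.00245) passed the test with TMM scaling, but its value with library totals alone was -0.20 (adjusted p = 0.583), and 5 of 10 livers lay above every testis. SULT4A1, a sulfotransferase known mainly from brain, went the other way. It held 226 counts over the 10 testes and 1 count over the 10 livers, a ratio per total count of 265 with an exact 95% interval from 47.0 to 10495 that covers counting error only. Every testis held SULT4A1 counts, at 1.64 to 3.35 CPM, and 1 of 10 livers held the single count.

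**Figure D1:**
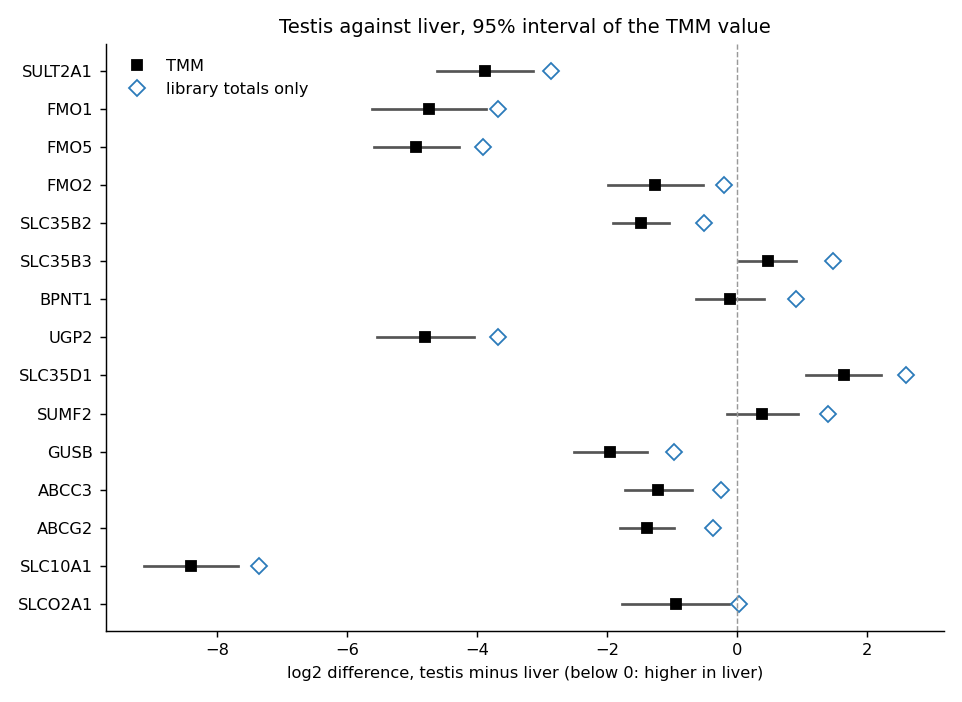
Log2 difference of testis against liver (x axis) for SULT2A1, FMO1, FMO5, their relative FMO2 and the genes of donor supply, reversal and transport (y axis). The relative SULT4A1, which was higher in testis, is not drawn. Black squares with bars are edgeR values with TMM scaling and their 95% intervals, and open diamonds are values with library totals alone. SULT2A1, FMO1, FMO5, UGP2 and SLC10A1 lie far to the left, higher in liver, under both scalings, whereas FMO2, ABCC3, ABCG2 and SLCO2A1 come close to 0 with library totals.

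Conjugation needs a donor, its product leaves through carriers, and other enzymes can reverse it. Of 32 such symbols, 11 had a counted ID. UGP2, which makes the UDP-glucose from which UDP-glucuronic acid is formed, was 32.6 ± 5.49 CPM in testis and 916 ± 697 CPM in liver (SD, n = 10 each), with a log2 difference of -4.80 (SE 0.36, adjusted p = 6.54e-12). SLC10A1, the bile acid uptake carrier NTCP of the hepatocyte membrane, had the widest gap, from 1.32 ± 0.47 CPM in testis to 469 ± 203 CPM in liver (SD, n = 10 each). GUSB, the beta-glucuronidase that removes glucuronic acid, was higher in liver by a log2 difference of -1.95 (SE 0.27, adjusted p = 5.06e-07). SLC35D1, which carries UDP-glucuronic acid into the endoplasmic reticulum, was the only one of the 11 called higher in testis with TMM scaling, with a log2 difference of 1.64 (SE 0.28, adjusted p = 8.19e-06).

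SLC35B2, which carries PAPS into the Golgi, was higher in liver by a log2 difference of -1.47 (SE 0.21), and the efflux pumps ABCC3 and ABCG2 by -1.21 (SE 0.25) and -1.39 (SE 0.20). The organic anion carrier SLCO2A1 had a log2 difference of -0.95 (SE 0.40, adjusted p = 0.0337), and leaving out any of 6 single samples ended its call. Over 13 relatives and pathway genes, 8 were called higher in liver, 2 higher in testis and 3 passed in neither direction, against 32.2% and 43.5% of all tested IDs higher in liver and in testis. The median log2 difference was -1.21 for the 13 and 0.31 for all IDs. With library totals alone the 13 divided into 3 higher in liver, 5 higher in testis and 5 not called, against 18.8% and 59.5% of all IDs higher in liver and in testis. SLC35B2, ABCC3, ABCG2, SLCO2A1 and FMO2 then lost the call, and SLC35B3, SUMF2 and BPNT1 gained one as higher in testis, with log2 differences of 1.47, 1.41 and 0.90.

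The second question was whether the levels followed fat androstenone. In testis, SULT2A1 lay at 23.1, 55.8, 74.6, 61.5 and 88.4 CPM in the low androstenone samples 1 to 5. In the high androstenone testes 1 to 5 it lay at 28.1, 178, 192, 108 and 87.2 CPM. Thus 3 of 5 high samples exceeded every low sample, and high sample 1 was close to the lowest low sample. SULT2A1 was 60.7 ± 24.5 CPM (SD, n = 5) in low and 118.6 ± 67.5 CPM (SD, n = 5) in high testes, a log2 difference of 0.96 (SE 0.41, 95% interval 0.08 to 1.85). The unadjusted edgeR p was 0.0342 and the adjusted p was 0.488. The exact two-sided permutation test on log2(CPM + 0.5) gave p = 0.190, where 5 against 5 samples allow no p below 0.00794. Neither the adjusted nor the exact test thus placed the difference beyond the spread between boars.

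Of the 18340 IDs tested in testis, 0% were called and 9.49% had an unadjusted p under 0.05, so the 1 of 3 enzymes with such a p is read against that share. Changes as large as that of SULT2A1 were seen for 5.01% of the IDs. The SULT2A1 difference was also uneven over sequencing depth: high minus low was -0.06 on the log2 scale among the 5 testes with over 10000000 counts (2 high, 3 low) and 1.75 among the 5 with fewer (3 high, 2 low).

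FMO1 in testis lay at 87.9, 90.1, 204.6, 50.4 and 69.2 CPM in low samples 1 to 5 and at 60.8, 254, 141.6, 35.2 and 126.3 CPM in high samples 1 to 5. The groups overlapped over nearly their whole range, since the lowest and the highest testis were both high androstenone samples. The log2 difference was 0.30 (SE 0.45, 95% interval -0.65 to 1.25; adjusted p = 0.847; exact permutation p = 0.817). FMO5 was low in every testis, with 2.38 to 4.33 CPM in low and 2.26 to 4.15 CPM in high samples. Its log2 difference was -0.01 (SE 0.25, 95% interval -0.54 to 0.53; adjusted p = 0.994; exact permutation p = 0.873). All 10 testes thus held little FMO5, and the groups covered the same range. FMO2 and SULT4A1 had log2 differences of -0.29 and 0.21 in testis, with adjusted p of 0.827 and 0.822. In testis the groups overlapped for all 5 genes, where 1.79% of all IDs had groups that did not overlap.

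**Figure D2:**
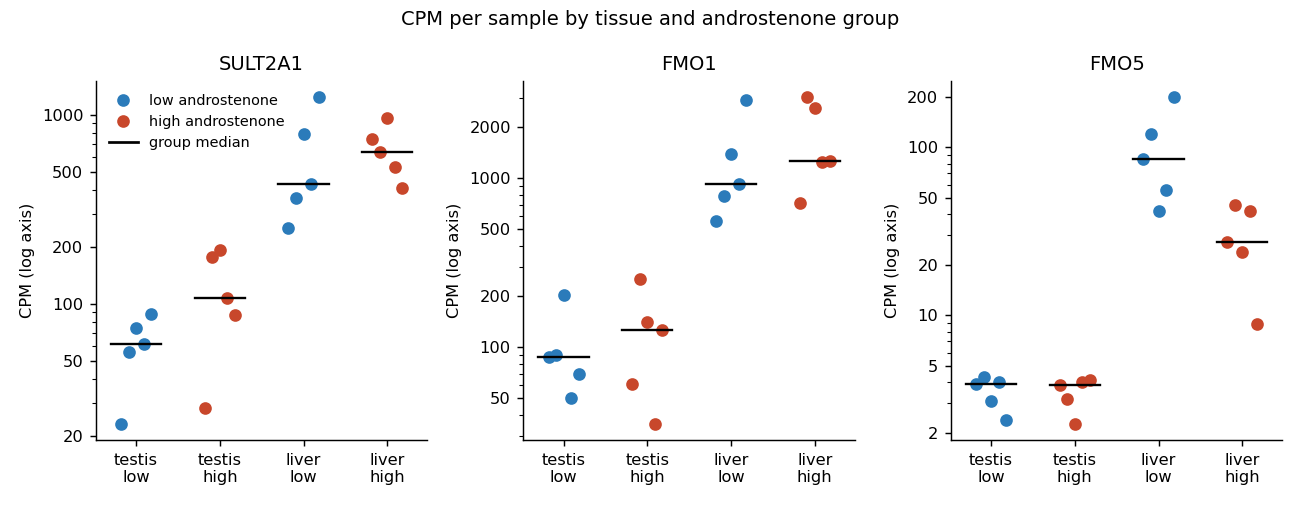
CPM on a log axis (y) for SULT2A1, FMO1 and FMO5 in the 4 groups (x), with 1 point per sample, low androstenone in blue, high in red and a bar at the group median. CPM are scaled within each tissue. All livers lie above all testes in each panel, as they did on the scale set over all 20 samples. For SULT2A1 3 high testes lie above the low ones, and in liver the high samples of FMO5 lie mostly below the low ones.

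The testes differed from each other in SULT2A1 together with a marker of Leydig cells. CYP17A1, the P450 that makes androgen precursors in these cells, was compared with SULT2A1 as one of 165 relations between the 3 enzymes and the matched markers, relatives and one another in either tissue. Over the 10 testes, Pearson's r of log2(CPM + 0.5) was 0.96 and Spearman's rho 0.98. The permutation p values were 2e-05 and 3e-05 and the Benjamini-Hochberg adjusted values over the 165 relations were 0.00330 and 0.00495. Without the 2 testes farthest from the median of SULT2A1, r was 0.95. Among 4551 IDs with a symbol, CYP17A1 ranked 2 by its correlation with SULT2A1 in testis.

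SULT2A1 counts per CYP17A1 count, a ratio that sequencing depth does not enter and that was chosen after the values were seen, stayed between 0.144 and 0.293 over the 10 testes. The ratio was 0.212 ± 0.054 (SD, n = 5) in low and 0.225 ± 0.024 (SD, n = 5) in high samples. CYP17A1 itself had a log2 difference of 0.86 between high and low testes (adjusted p = 0.513), close to the 0.96 of SULT2A1. The other Leydig markers gave weaker relations: r was 0.85 for INSL3 (adjusted permutation p = 0.0785), 0.54 for HSD3B1 (adjusted p = 0.525) and -0.28 for LHCGR (adjusted p = 0.781), and without the 2 farthest testes 0.62, -0.02 and 0.43. SOX9, a Sertoli cell transcription factor, ran opposite to SULT2A1, with r = -0.88 and rho = -0.90 (adjusted permutation p = 0.0412 and 0.0610) and r = -0.77 without the 2 farthest samples. The other Sertoli markers AMH and CLU had r of 0.14 and 0.27. Each depth class held 5 testes, too few for a correlation within it.

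**Figure D3:**
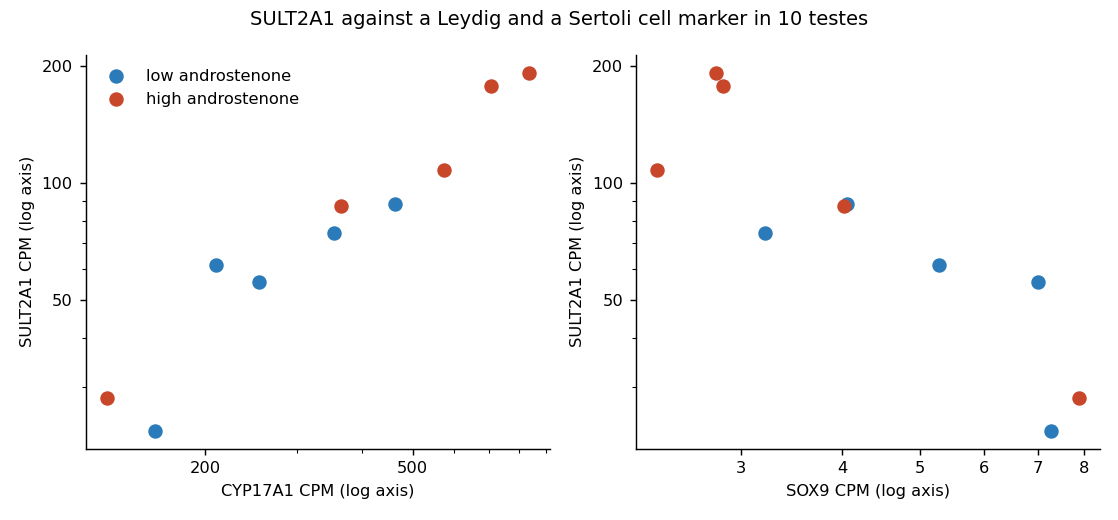
SULT2A1 CPM (y, log axis) against CYP17A1 CPM (left panel, x, log axis) and SOX9 CPM (right panel, x, log axis) in the 10 testes, with 1 point per sample, low androstenone in blue and high in red. The points climb along one line with CYP17A1, r = 0.96, and fall with SOX9, r = -0.88, and both groups lie along the same trend.

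The cell type markers of the testis were also set beside the groups. The summed level of 4 Leydig markers had a range of 998 to 4634 CPM in low and of 1150 to 4678 CPM in high testes. Of the Sertoli markers, CLU, which was also abundant in liver (1808 to 16105 CPM), ranged from 17460 to 30413 CPM in low and from 5611 to 18596 CPM in high testes (log2 difference -0.72, adjusted p = 0.472). AMH and SOX9 were low, at 5.32 to 14.2 CPM and 3.21 to 7.28 CPM in low and at 5.55 to 9.97 CPM and 2.35 to 7.89 CPM in high testes, with log2 differences of -0.10 (adjusted p = 0.931) and -0.38 (adjusted p = 0.738). Blood genes (9 IDs of HBB, HBA2 and HBM) summed to 157 to 1448 CPM in low and to 69.98 to 214.9 CPM in high testes. The part of these markers in the SULT2A1 difference was not tested.

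In liver, FMO5 was the enzyme with the largest difference between the androstenone groups. It lay at 85.6, 120.5, 41.7, 55.9 and 198.0 CPM in low livers 1 to 5 and at 27.4, 45.2, 23.7, 41.9 and 8.88 CPM in high livers 1 to 5. The high samples were at the bottom of the order, with 3 of 5 below every low liver, but high livers 2 and 4 lay just above low liver 3. FMO5 was 100.3 ± 62.4 CPM (SD, n = 5) in low and 29.4 ± 14.7 CPM (SD, n = 5) in high livers, a log2 difference of -1.77 (SE 0.47, 95% interval -2.78 to -0.77). The unadjusted edgeR p was 0.00195, a value that 0.057% of the 15855 tested IDs matched or went below, yet the adjusted p was 0.9999. The exact permutation test gave p = 0.0238. FMO5 entered the list because the study selected it on these same livers, so the difference is not independent evidence. The study itself called FMO5 lower in high livers with DESeq, and FMO5 also passed its generalized linear model on the same counts. It reported the same direction by qRT-PCR in these boars and a similar pattern in independent boars. An FMO5 polymorphism was also associated with androstenone level in the study's boars. The qRT-PCR and polymorphism data were not examined here.

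The FMO5 difference kept its sign in both depth classes, with high minus low at -2.29 on the log2 scale among the 5 livers with over 10000000 counts (2 high, 3 low) and -0.89 among the other 5 (3 high, 2 low). Leaving out any one liver gave log2 differences from -1.98 to -1.37. The difference between the FMO5 effects in testis and liver was tested as an interaction and came to 1.86 (SE 0.56, 95% interval 0.71 to 3.02; adjusted p = 0.963), with 0.278% of IDs at as small an unadjusted p. In that test 0% of 19065 IDs were called, and 4.67% had an unadjusted p under 0.05.

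FMO1 and FMO2 did not share the direction of FMO5 in liver. FMO1 lay at 556, 785, 1394, 928 and 2920.2 CPM in low livers 1 to 5 and at 719, 3014, 2618, 1251 and 1260.2 CPM in high livers 1 to 5. Both groups spanned nearly the same range, with a log2 difference of 0.43 (SE 0.49, 95% interval -0.62 to 1.48; adjusted p = 0.9999; exact permutation p = 0.397). FMO2 was 1.37 ± 1.14 CPM in low and 2.04 ± 1.33 CPM in high livers (SD, n = 5 each), a log2 difference of 0.53 (SE 0.56). The interaction was -0.06 (SE 0.73) for FMO1 and -0.74 (SE 0.71) for FMO2.

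**Figure D4:**
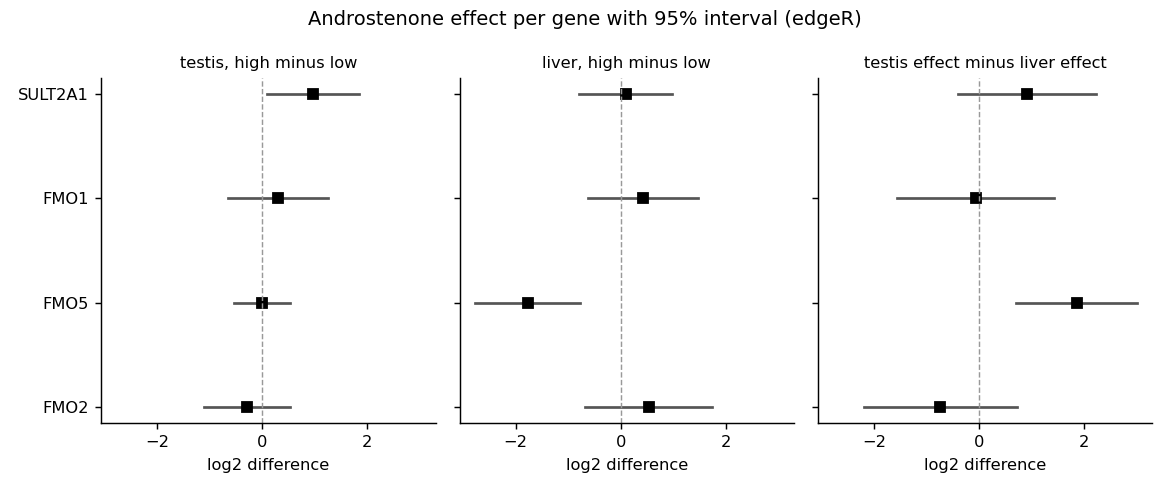
Log2 difference of high against low androstenone (x axis) for SULT2A1, FMO1, FMO5 and FMO2 (y axis) in testis (left), in liver (middle) and as the testis effect minus the liver effect (right), with squares for edgeR values and bars for 95% intervals. The intervals of FMO5 in liver, of SULT2A1 in testis and of FMO5 in the right panel lie off 0, and none of these genes passed the test adjusted over all IDs.

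The monooxygenases were also set against each other within a sample. Of the liver counts summed over the FMO1, FMO2 and FMO5 IDs, which are not corrected for transcript length, FMO5 took 8.31 ± 4.75% (SD, n = 5) in low and 2.00 ± 1.37% (SD, n = 5) in high livers. FMO1 took 91.6 ± 4.76% in low and 97.9 ± 1.38% in high livers (SD, n = 5 each). For FMO5 the shares ran from 2.90% to 13.3% in low and from 0.70% to 3.67% in high livers, so that the groups overlapped. In testis FMO1 took 94.2 ± 2.84% in low and 94.5 ± 4.08% in high samples (SD, n = 5 each), and FMO5 4.12 ± 2.08% and 4.40 ± 3.70%. These shares were computed after the values had been seen and are given without a test.

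Over the 10 livers FMO1 went with FMO2 (r = 0.88, rho = 0.85, r = 0.75 without the 2 farthest samples). The permutation p adjusted over the 165 relations was 0.0764 for Pearson's r. FMO2 rested on only 4 to 48 counts per liver, beside 6776 to 52096 for FMO1. IDs of similar genes may have shared reads, and whether FMO1 reads were counted under the FMO2 ID was not tested. FMO5 and FMO1 had r = -0.004 (adjusted permutation p = 0.991) and r = -0.53 without the 2 farthest samples. FMO5 and FMO2 had r = 0.16 (adjusted permutation p = 0.981) and r = -0.37 without the 2 livers farthest from the median of FMO5. In the pig RefSeq gene table (Sscrofa 11.1) FMO2, FMO1 and FMO4 are neighbours in this order, and FMO5 is not among them. Whether gene order bears on these correlations was not tested.

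**Figure D5:**
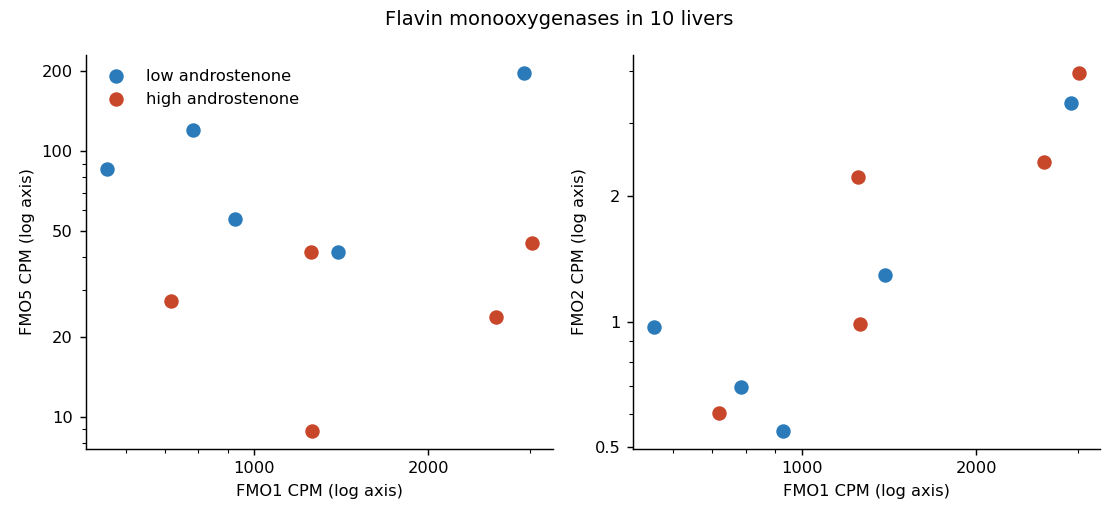
FMO5 CPM against FMO1 CPM (left) and FMO2 CPM against FMO1 CPM (right) in the 10 livers, all axes logarithmic, with 1 point per sample, low androstenone in blue and high in red. FMO2 held only 4 to 48 counts per liver. In the left panel r is -0.004 over all 10 livers and -0.53 without the 2 farthest, and the high livers lie mostly in its lower part, whereas in the right panel both groups are spread along the whole trend, with r = 0.88.

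SULT2A1 in liver lay at 251.9, 363, 787, 430 and 1237 CPM in low samples 1 to 5 and at 748, 635, 959, 526.5 and 411 CPM in high samples 1 to 5. All high livers lay within the range of the low ones. The log2 difference was 0.10 (SE 0.42, 95% interval -0.80 to 0.99; adjusted p = 0.9999; exact permutation p = 0.556), and the depth classes gave 0.81 and -0.17. The interaction for SULT2A1 was 0.92 (SE 0.64, 95% interval -0.40 to 2.24; adjusted p = 0.99999), so the testis and liver effects were not shown to differ.

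In liver 0 of 3 enzymes were called by edgeR, 1 of 3 had an unadjusted p under 0.05 and DESeq2 called 0. Of all IDs tested in liver 0% were called, 2.93% had an unadjusted p under 0.05 and 0.505% had groups that did not overlap. None of the tested enzymes or relatives had groups apart in liver. In testis and in the interaction edgeR and DESeq2 also called 0 of 3, and 1 of 3 had an unadjusted p under 0.05, SULT2A1 in the former and FMO5 in the latter. Hepatocyte markers summed to 63506 to 174310 CPM in low and to 65033 to 128375 CPM in high livers, and blood genes to 1356 to 7010 CPM and to 862 to 9695 CPM. The leukocyte markers CD14 and PTPRC summed to 257 to 412 CPM in low and to 277 to 412 CPM in high livers, mostly from CD14. PTPRC alone was 36.2 ± 11.7 CPM in low and 26.7 ± 4.18 CPM in high livers, and the endothelial marker PECAM1 was 49.1 ± 12.0 CPM and 39.7 ± 1.73 CPM (SD, n = 5 each). Over the 10 livers PTPRC had r = 0.53 and rho = 0.68 with FMO5 (adjusted permutation p = 0.541 and 0.405), and r = 0.93 without the 2 livers farthest from the median of FMO5. PECAM1 had r = 0.69 and rho = 0.70 with FMO5 (adjusted permutation p = 0.275 and 0.405), and r = 0.73 without the 2 livers. CD14 was 298 ± 64.9 CPM in low and 313 ± 50.3 CPM in high livers (SD, n = 5 each). Its r with FMO5 was 0.44 (adjusted permutation p = 0.634), and 0.31 without the 2 livers. Among hepatocyte markers r was 0.71 for SERPINA1 (adjusted permutation p = 0.275), 0.50 for TF, 0.47 for ALB and -0.01 for APOA1. Without the 2 livers these were 0.20, -0.38, -0.14 and 0.33. AMH, a Sertoli cell marker that was low in the livers at 1.10 to 7.61 CPM, had r = -0.86 (adjusted permutation p = 0.0785). The Leydig marker HSD3B1 had r = 0.67 (adjusted permutation p = 0.275) and the Sertoli marker CLU r = 0.43. The bile duct markers KRT19 and EPCAM had r of -0.46 and -0.07. Without the 2 livers r was -0.87 for AMH, 0.72 for HSD3B1, -0.52 for CLU, -0.35 for KRT19 and 0.20 for EPCAM. The part of these markers in the FMO5 difference was not tested.

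The 13 relatives and pathway genes gave no edgeR call between androstenone groups, with 0 of 13 in testis, 0 of 12 tested in liver and 0 of 13 in the interaction, where 0% of all IDs were called in each. At an unadjusted p under 0.05 there were 0 in testis, 0 in liver and 1 in the interaction (GUSB), against 9.49%, 2.93% and 4.67% of all IDs. GUSB had the smallest unadjusted p of the reversal genes in each comparison. Its mean was 39.3 ± 17.5 CPM in low and 64.8 ± 37.5 CPM in high testes, and 117.0 ± 23.2 CPM in low and 83.7 ± 15.7 CPM in high livers (SD, n = 5 each). The GUSB log2 difference was 0.72 (SE 0.42, exact permutation p = 0.365) in testis and -0.48 (SE 0.25, exact permutation p = 0.0397) in liver, with adjusted edgeR p of 0.603 and 0.9999. Its interaction was 1.28 (SE 0.53, 95% interval 0.18 to 2.37; adjusted p = 0.99999). The donor genes were led by SLC35D1, with 0.41 (SE 0.29) in testis and 0.61 (SE 0.48) in liver, and the interaction by UGP2, with -0.51 (SE 0.62). The transport genes were led by ABCG2 in testis, with -0.11 (SE 0.22), and by ABCC3 in liver and in the interaction, with -0.24 (SE 0.33) and 0.37 (SE 0.49). The median log2 difference of the list was 0.07 in testis and 0.05 in liver, beside -0.02 and 0.01 for all IDs.

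The IDs whose level ran most closely with each enzyme over the 10 livers are given as a description, out of 3980 IDs with a symbol. For SULT2A1 they were FOS (r = 0.95), OARD1 (r = 0.93) and AGTRAP (r = 0.91). For FMO1 they were UFC1 (r = 0.97), LOC100524972 (r = 0.93) and C1D (r = 0.93). For FMO5 they were SLC15A2 (r = 0.94), ARNT (r = 0.89) and GPLD1 (r = 0.89), and r for ARNT was 0.64 without the 2 livers farthest from the median of FMO5. SULT2A1 and FMO1 were themselves related over the livers (r = 0.75, adjusted permutation p = 0.275), with r = 0.51 without the 2 livers farthest from the median of SULT2A1 and 0.72 without the 2 farthest from that of FMO1. SULT2A1 and FMO5 had r = 0.04 (adjusted permutation p = 0.991), which moved to -0.88 without the 2 livers farthest from the median of FMO5 and to -0.25 without the 2 farthest from that of SULT2A1.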

How the data were processed

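The deposited values are raw read counts per RefSeq transcript ID, made by the authors from single 100-base Illumina reads (cDNA by the SMART kit, 1 lane per sample) that were base-called with CASAVA 1.7, mapped with BWA and handled with SAMtools. The reference was a pig transcript set tied to assembly Sscrofa 9.2, and IDs of similar genes may have shared reads, since the treatment of multiply mapped reads is not given in the sources used here. The 10 IDs that each file repeats were used once. Symbols came from the pig RefSeq gene table (Sscrofa 11.1), matched on the ID without its version. Where that gave no match, the names in the study were used, as for the IDs of HBA2 and HBM. Coordinates were not printed because the assemblies differ. No sequence of these transcripts was held, so none is shown. One item is not reported here.

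Counts were analysed with edgeR 4.0.16 in R 4.3.3: TMM factors, a minimum of 10 counts per ID in total within a fit, the quasi-likelihood test and Benjamini-Hochberg adjustment over all tested IDs. High and low samples were compared within each tissue, and the tissues and the interaction in 1 fit of 20 samples. An SE is the log2 difference divided by the root of F, and intervals use the fit's t quantile. Exact permutation tests covered all 252 arrangements, and correlations used 100000 permutations, for which the smallest p is 1e-05. The scripts were tested on simulated data. The genes with values in the text are every matched member and relative, the pathway genes called in a comparison or with the smallest p of their list there, and the 3 IDs most correlated with each member. Other genes (cell type markers) are named because their levels were set beside the organs, the groups or the enzymes. The members and lists were chosen with earlier results of these data known. Libraries of a group differed well beyond counting noise. Replicates of a group are separate boars, and the main p-values of high against low within a tissue measure the spread between them. The tissue and interaction tests treat testis and liver of a boar as separate samples. The likelihood ratio test with trended dispersion does not use the spread of each ID.

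Alternatives were RLE factors, library totals alone, other filters, DESeq2 1.42.0, a likelihood ratio test with trended dispersion, a replicate block, a depth covariate, summed IDs, 1 fit for all samples, other pseudocounts and leaving out each sample.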

Additional observations from a re-analysis of the deposited data

Results flagged for a closer look

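In 19 groups of 5 samples over the 5 genes, 3 held a sample far from the others by Dixon's test (critical gap 0.71 of the range). Chance would give about 1 in 20 groups if the values were normally distributed, which was not examined for CPM. FMO1 in low testis 3 was 204.6 CPM, with a gap of 0.74 of the group's range. FMO2 in low liver 5 was 3.35 CPM, with a gap of 0.73. SULT4A1 in high liver 3 was 0.050 CPM, which is the single count of that gene in the livers. With no count in the other livers of the group, a single count is flagged in whichever liver it falls.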

How the results depend on the processing

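The alternatives left most results as they were. Over 108 values of SULT2A1, FMO1 and FMO5 under other settings, 101 kept their direction and side of the threshold. The likelihood ratio test with trended dispersion, which does not use the spread of each ID, was the exception: it called 1 of 3 enzymes in testis (SULT2A1, adjusted p = 0.00766), 1 in liver (FMO5, adjusted p = 0.00532) and 1 in the interaction (FMO5, adjusted p = 0.0288), where the main tests called 0, and it called 225, 45 and 46 of all IDs in the 3 comparisons against 120, 7 and 1 by DESeq2 and 0 by edgeR's quasi-likelihood test. FMO5 in testis, near 0, turned to 0.014 with RLE factors, 0.013 in the fit of 20 samples, 0.0044 without a filter and 0.021 in DESeq2. SLCO2A1 in testis against liver turned to 0.038 with library totals alone.

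Leaving out 1 sample at a time called 0 of 3 enzymes in testis, liver and the interaction and 3 of 3 between tissues. The log2 differences had a range of 0.73 to 1.23 for SULT2A1, -0.14 to 0.74 for FMO1 (below 0 only without high testis 2) and -0.11 to 0.12 for FMO5 in testis. In liver they were -0.11 to 0.52 for SULT2A1 and 0.15 to 0.95 for FMO1, and the interaction of FMO1 was -0.58 to 0.38. ABCG2 in testis ranged from -0.22 to 0.086, UGP2 in the interaction from -0.92 to 0.068 and SLCO2A1 between tissues from -1.09 to -0.58, with its call lost without low testis 2, high testis 4 or 5, low liver 3 or 4, or high liver 3.

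With the replicate block, 0 of 3 enzymes were called in testis, in liver and in the interaction and 3 of 3 between tissues, so the block changed no call; log2 differences were 0.83 for SULT2A1 in testis and -1.64 for FMO5 in liver. Among all IDs, those at an unadjusted p under 0.05 numbered 2025 with the block and 1741 without it for testis, and 311 and 465 for liver. The numbers were not shown to pair the samples. The correlation of same-numbered deviations averaged between 0.017 and 0.171 over the 4 pairs of groups and was below 0 for at least 1 number in each. For differing numbers the averages lay between -0.045 and -0.0038. Samples matched best with their own number in 1 or 2 of 5 cases. This check cannot exclude a pairing, since testis and liver of a boar need not deviate alike. The cause of the changes under these alternatives was not tested. Depth limits SULT4A1 in liver, where 3 counts correspond to between 0.11 and 0.52 CPM.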
